A study of Mus musculus with 28 samples.

Results

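The guidance genes examined here are the ligands and receptors that steer growing axons and that epithelial cells also use: semaphorins with their plexin and neuropilin receptors, Slits with Robos, netrins with the Unc5 receptors, and ephrins with the Eph receptors. Every gene whose symbol begins with the family name and a member number or letter was taken, which gave 70 of the 45706 genes listed. Of these, 67 code for proteins, 34 as ligands and 33 as receptors, and 3 are antisense transcripts of Plxna4. RNA sequencing gave their expression in 28 libraries of mIMCD-3, an epithelial line of inner medullary collecting duct origin from the kidney of a mouse carrying an SV40 transgene, with RNA isolated 4 days after full confluency. The 7 cell lines had 4 libraries each and were all unedited wild-type (WT) cells: the polyclonal WT line, the monoclonal line WT5 grown from a single sorted cell, and subclones 1 to 5, each sorted as a single cell from WT5. WT5 is therefore 1 clone, and each subclone is a clone of that clone.

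Guidance ligands bind receptors that act on the cytoskeleton through small GTPases. Secreted class 3 semaphorins bind neuropilins, which pass the signal on through class A plexins, whereas membrane-bound semaphorins bind plexins directly. Slits bind Robos, netrins bind Dcc, neogenin and Unc5 receptors, and ephrins are anchored to the membrane and meet Eph receptors on a touching cell, so that both cells can respond. In the kidney, Slit2 and Robo2 are known for placing the ureteric bud, from which the collecting duct grows, and semaphorin and ephrin signals for branching and for contacts between cells.

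Values are in TPM, transcript abundance scaled to transcript length and to the total of each library, so that levels of genes can be set side by side, but the read depth behind them is unknown. The polyclonal libraries were sequenced as short single-end reads and WT5 as longer paired-end reads at another time, so cell line and sequencing batch cannot be told apart in that comparison. The subclones are in a separate table from WT5, so where all 5 depart from WT5 alike, a property of the lines and one of the tables cannot be told apart. Between 18681 and 19272 genes were above 0 in a polyclonal library, 16318 to 16536 in a WT5 library and 16270 to 17004 in a subclone library. Sources differ on whether the 4 libraries per line are biological or technical replicates, so p-values measure only the spread between these libraries. Of 13 markers of collecting duct or simple epithelium, 12 reached 1 TPM in at least 1 library. Epcam was at 427 to 619 TPM in every library. Aqp2, the water channel of principal cells, was listed at 0 in all 28, and Aqp3 had no line mean above 0.892 TPM. In WT5 and the subclones, means were at most 0.658 TPM for Scnn1a and at most 0.2 TPM for Gata3 and Avpr2. The list summed to 1864 to 2147 TPM in polyclonal libraries, 3964 to 4098 TPM in WT5 and 2426 to 3201 TPM in the subclones. Krt8, Krt18 and Cldn4 made up most of this rise, while the means of others on the list were lower in WT5 than in polyclonal cells, as for Cdh1 (145 and 97.6 TPM), Hoxb7 (68.01 and 55.3 TPM), Avpr2 (10.6 and 0.06 TPM) and Gata3 (4.08 and 0.04 TPM), and whether this bears on the guidance genes was not tested. Markers of intercalated cells summed to 0.65 to 1.85 TPM in polyclonal libraries, 0.07 to 0.16 TPM in WT5 and 0.08 to 0.7 TPM in the subclones. Among these markers, Atp6v1b1 had means of 1.325 TPM in polyclonal cells and 0.018 TPM in WT5. Markers of fibroblasts, endothelium and neurons or glia summed to at most 2.11, 0.29 and 2.92 TPM in a library, and those of leukocytes to at most 4.68 TPM, with Cd68 as the main part. A pair of subclone libraries stood lowest over the guidance genes: subclone 3 replicate 2 was the lowest of its 4 libraries in 27 of the 32 members expressed in every line, with a median deviation of -0.25 on the log2 scale from the mean of the subclone, and subclone 5 replicate 1 in 26 of the 32, with -0.30. Over 11069 genes with at least 1 TPM in every line the same libraries deviated by -0.14 and -0.18. Smaller shifts ran through the other subclones. Subclone 1 replicate 3 was lowest in 23 of the 32 members (-0.137), subclone 2 replicate 2 in 22 (-0.122) and subclone 4 replicate 1 in 19 (-0.075). Subclone 2 replicate 1 was highest in 25 (0.13).

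Confluent mIMCD-3 cells expressed a large part of the guidance repertoire. Of the 70 genes, 41 had a mean of at least 1 TPM in at least 1 cell line, 33 reached 10 TPM in at least 1, and 32 were at 1 TPM or above in all 7 lines. Of the other 29, 9 were listed at 0 in all 28 libraries, the 3 antisense transcripts among them, and 20 were above 0 in a library but below 1 TPM in every line mean. The number at 1 TPM or above was 35 in polyclonal cells, 39 in WT5 and 38 or 39 in each subclone.

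Families differed in how much of them was expressed. All 5 ephrin-A and all 3 ephrin-B ligands and both neuropilins reached a mean of 1 TPM in some line, as did 5 of 7 class 3 semaphorins, 9 of 13 semaphorins of classes 4 to 7, 6 of 9 plexins, 4 of 9 EphA and 3 of 5 EphB receptors, and 2 of 3 netrins. Only 1 of 4 Unc5 receptors and 1 of 3 Slits did, and 0 of 4 Robos. Plxnb2, a receptor for class 4 semaphorins, had the highest level, with a mean of 203 TPM over the 28 libraries, followed by the ephrin Efna1 with 149.8 TPM. The leading member of the other families was Ephb4 (50.4 TPM), Sema3f (39.6 TPM), Ntn4 (36.4 TPM), Epha2 (32.5 TPM), Sema4d (29.9 TPM), Efnb2 (18.2 TPM), Nrp2 (17.1 TPM), Unc5b (10.5 TPM), Slit2 (3.30 TPM) and Robo3 (0.018 TPM). Most of the 28 libraries are of WT5 or its subclones, so these means mostly describe that clone. In the polyclonal libraries Sema3c (91.12 to 104.45 TPM) stood above Sema3f (16.85 to 21.15 TPM). Sema4b (27.14 to 32.24 TPM) stood above Sema4d (19.2 to 21.82 TPM) there, and Nrp1 (5.95 to 6.75 TPM) above Nrp2 (1.36 to 1.91 TPM). Unc5b was at 0.13 to 0.24 TPM in these libraries and Robo3 was listed at 0.

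**Figure D1:**
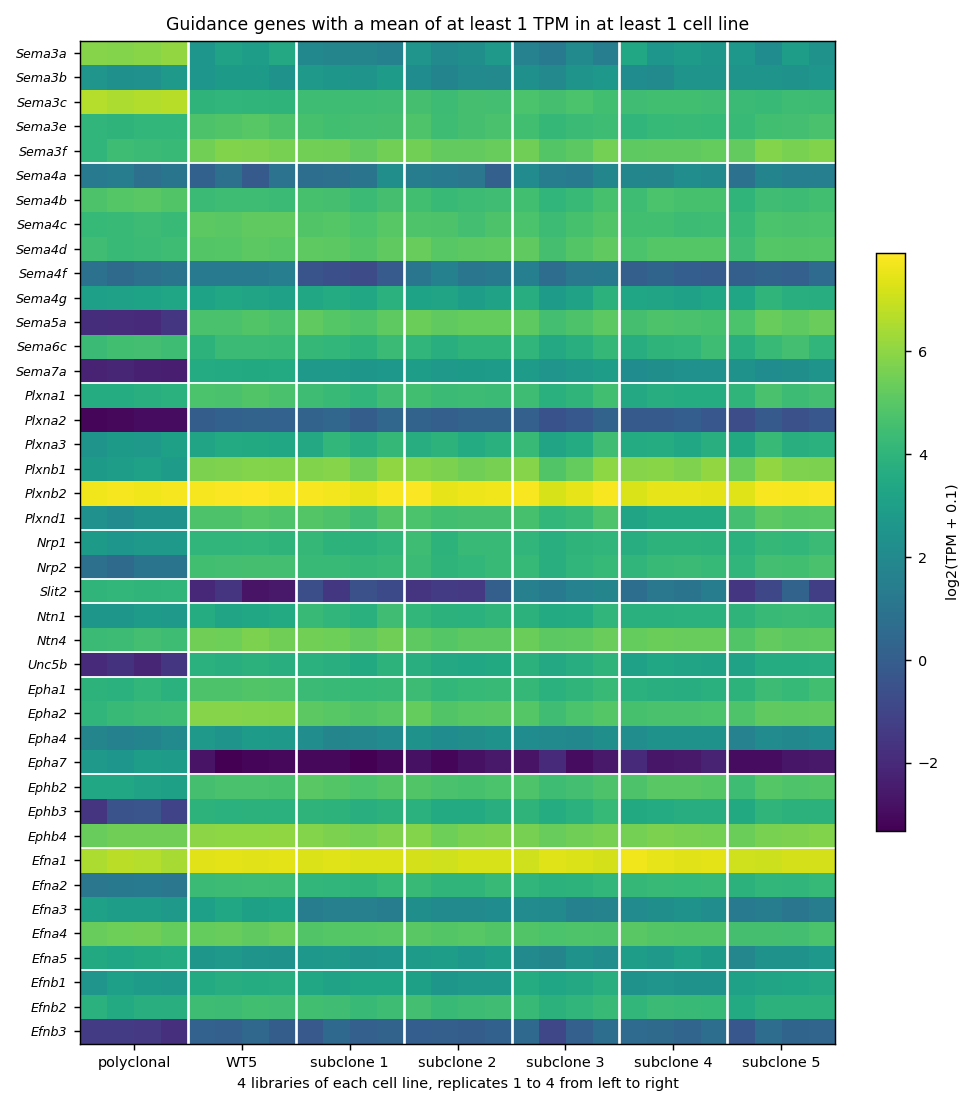
Level of the 41 guidance genes that reached a mean of 1 TPM in at least 1 cell line (rows, grouped by family) in the 28 libraries (columns, 4 per line), as log2(TPM + 0.1) on the colour scale. Plxnb2 and Efna1 are bright in every column, Slit2 and Epha7 are brightest in the 4 polyclonal columns, and Sema5a, Sema7a and Unc5b are dark only there.

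WT5 and polyclonal cells differed in many guidance genes, among them several that 1 line expressed and the other had near 0. A gene was called by the 2-fold rule when limma on log2(TPM + 0.1) gave an adjusted p below 0.01 and a difference above 1 on that scale, over genes with a mean of at least 0.1 TPM. By this rule 23 of the 45 members tested were called, 18 of them higher in WT5 and 5 lower, which is 51.1% of the members tested against 32.5% of all 17226 genes tested. Among all genes 15.1% were called higher and 17.4% lower. The median difference was 0.84 over the members tested and 0.09 over all genes, on the log2 scale. A gene far from 0 in a single line passes the minimum through that line alone; of the 40 members with at least 0.1 TPM in both lines, 19 were called, or 47.5%, against 24% of all such genes. Centring each library on its median gene moved every difference down by 0.21 on the log2 scale. The calls of Plxna1 and Ntn4 were lost by it, and the differences of Plxnb2, Sema3b and Sema4g, none of them called, turned from above to below 0.

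The stricter z-score rule follows the criteria of the methods, with limma in place of the unequal-variance test. Log2(TPM) without a pseudocount was z-scored within each library over the genes above 0 in all 8 libraries, and a gene was called at an adjusted p below 0.01 and a z-score difference above 1, which corresponds to a difference of about 8.56-fold. Of 43 members tested, 9 were called, 7 higher and 2 lower in WT5, where 5.43% of all 13723 genes tested were called, 2.31% higher and 3.12% lower. The 9 were Slit2, Sema3a, Sema5a, Sema7a, Unc5b, Ephb3, Nrp2, Plxna2 and Plxnb3. Plxnb3, at 1.10, was below the threshold without polyclonal replicate 4 (0.998). When a pseudocount of 0.1 was added and genes above 0 in any library were kept, Nrp2 (0.98), Plxna2 (0.919), Plxnb3 (0.477) and Sema3a (-0.738) were below it. Epha7 and Ntn5 were not tested by this rule because they were at 0 in some WT5 library.

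Of 17 receptors tested, 11 were called higher and 1 lower in WT5 by the 2-fold rule, and of 28 ligands tested, 7 were called higher and 4 lower, where 15.1% of all genes were called higher and 17.4% lower. The difference between receptors and ligands was not tested. By family, 5 of 7 plexins, both neuropilins, the 1 Unc5 receptor and 2 of 3 EphB receptors tested were called higher with 0 called lower, while class 3 semaphorins were called 2 higher and 2 lower of 7.

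**Figure D2:**
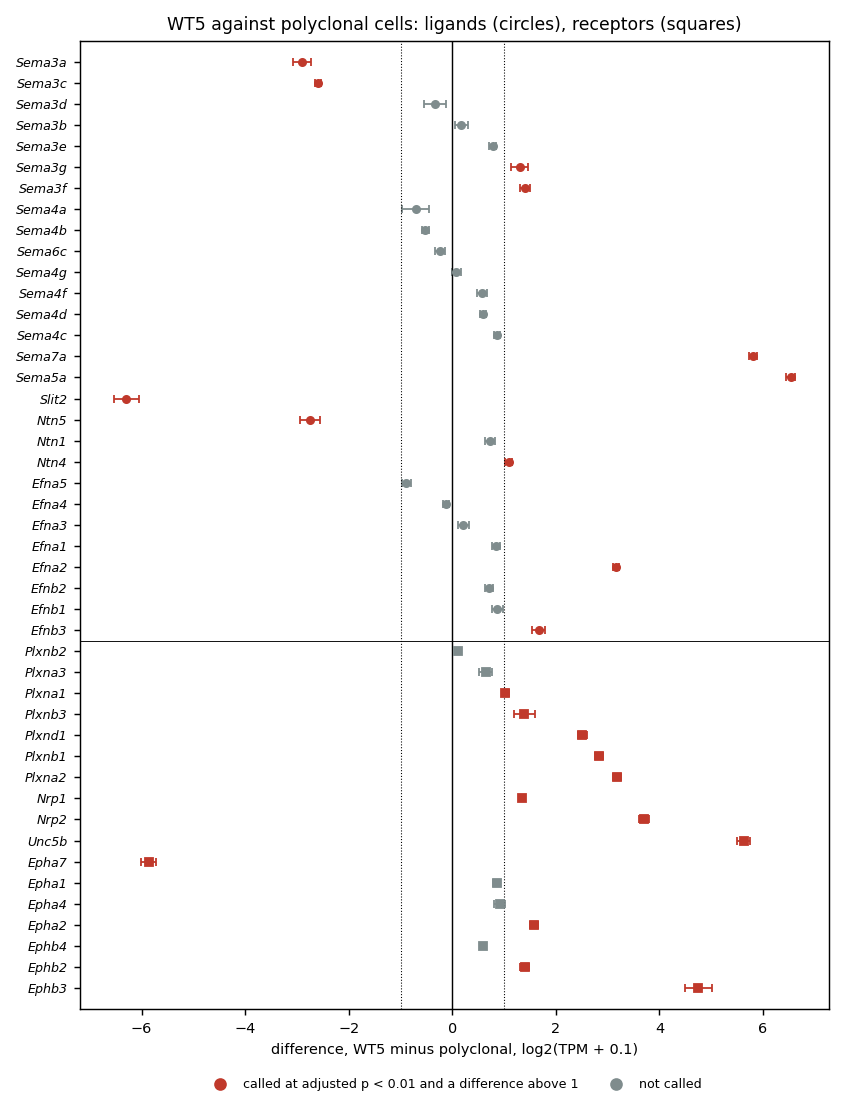
Difference between WT5 and polyclonal cells on the log2(TPM + 0.1) scale for the 45 members tested (points with their standard error, 4 libraries per line), ligands above the line and receptors below it. The dotted lines mark a difference of 1 in either direction; Slit2 (-6.29) and Epha7 (-5.87) lie farthest to the left, and Sema5a (6.53), Sema7a (5.81) and Unc5b (5.63) farthest to the right.

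The ligand and the receptor with the largest difference in each direction were Slit2 and Epha7, lower in WT5, and Sema5a and Unc5b, higher in WT5. The 250 bases before the start site of each are shown because these members were near 0 in 1 line and expressed in the other. They are from RefSeq on GRCm38.p6, in the direction of the gene, 5′ to 3′, with each CG in capitals. The windows are chr5:47982905-47983154 on the plus strand for Slit2, chr4:28812881-28813130 on the plus strand for Epha7, chr15:32244563-32244812 on the plus strand for Sema5a, and chr10:60831582-60831831 on the minus strand for Unc5b.
Slit2: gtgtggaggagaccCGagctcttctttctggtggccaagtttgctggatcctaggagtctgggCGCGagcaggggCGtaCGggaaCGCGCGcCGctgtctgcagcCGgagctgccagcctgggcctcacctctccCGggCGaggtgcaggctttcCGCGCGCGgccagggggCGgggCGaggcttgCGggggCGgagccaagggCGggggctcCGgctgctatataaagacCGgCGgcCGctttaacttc
Epha7: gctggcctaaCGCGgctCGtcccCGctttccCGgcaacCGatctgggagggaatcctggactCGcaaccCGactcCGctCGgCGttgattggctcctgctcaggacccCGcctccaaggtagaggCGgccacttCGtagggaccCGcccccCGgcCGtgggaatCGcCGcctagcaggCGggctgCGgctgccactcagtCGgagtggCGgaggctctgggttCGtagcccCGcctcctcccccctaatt
Sema5a: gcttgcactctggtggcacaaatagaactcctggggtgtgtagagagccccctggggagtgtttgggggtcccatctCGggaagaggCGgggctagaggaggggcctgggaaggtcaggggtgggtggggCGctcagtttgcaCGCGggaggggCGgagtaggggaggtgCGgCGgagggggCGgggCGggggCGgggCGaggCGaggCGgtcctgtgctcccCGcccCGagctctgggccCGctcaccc
Unc5b: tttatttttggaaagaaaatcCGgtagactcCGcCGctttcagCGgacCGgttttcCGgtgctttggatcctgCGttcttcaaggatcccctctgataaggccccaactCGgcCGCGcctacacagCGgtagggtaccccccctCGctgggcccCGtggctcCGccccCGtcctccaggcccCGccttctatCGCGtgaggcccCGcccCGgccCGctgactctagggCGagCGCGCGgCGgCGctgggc

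The Slit2, Epha7, Sema5a and Unc5b windows hold 25, 25, 17 and 27 CG, where the median over all 32851 promoters of the same length is 6 and that over the 58 members with a promoter in the table is 16. The motif GGGCGG, searched on both strands and overlapping CG, is in all 4 windows, in 42 of the 58 members (72.4%) and in 32.7% of all promoters. TATAAA, searched on both strands, is in the Slit2 window and in 1 other member (Efnb2), which is 3.4% of the members against 12.4% of all promoters. The sets are unlike, since each member has 1 promoter here. The 32851 promoters belong to 27025 genes, some with several, and are not limited to protein-coding genes. These shares and medians therefore do not set the members apart from other genes. Other members called hold few CG in their windows, with 2 in Ntn5, which was lower in WT5, and 3 in Plxnb3, which was higher. The window taken for Sema3a, chr5:13396534-13396783, also holds 2 CG. It lies inside the gene (chr5:13125414-13602565, plus strand), so the bases before the annotated start of Sema3a were not examined. No methylation or binding was measured.

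Slit2, the secreted ligand of Robo receptors, is a gene of chr5:47983138-48307733 on the plus strand of GRCm38. It was at 15.97, 17.3, 16 and 16.9 TPM in the polyclonal libraries and at 0.14, 0.23, 0.05 and 0.07 TPM in WT5. The groups lay far apart, and WT5 was lower, with a difference of -6.29 ± 0.24 (SE) on the log2(TPM + 0.1) scale (limma adjusted p = 2.4e-07) and of -2.45 ± 0.15 in z-score. In a bulk library fewer cells with the transcript and less transcript per cell cannot be told apart. The Robo genes were hardly detected in any line. Robo1 was at 0.05 to 0.06 TPM and Robo2 at 0.02 to 0.17 TPM in the polyclonal libraries, and both were listed at 0 in all other libraries. Robo3 reached at most 0.22 TPM, and Robo4 was listed at 0 throughout. Of the other Slits, Slit1 had a mean of at most 0.05 TPM in any line and Slit3 was listed at 0.

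Epha7, an EphA receptor for ephrin-A ligands, was at 6.58, 5.8, 7.66 and 7.38 TPM in polyclonal cells and at 0.05, 0, 0.01 and 0.02 TPM in WT5, a difference of -5.87 ± 0.14 on the log2(TPM + 0.1) scale (limma adjusted p = 2.5e-08). It was the 1 receptor called lower. Sema3a, a secreted class 3 semaphorin, fell from 59.2, 56.1, 60.2 and 67.04 TPM to 5.94, 8.7, 7.44 and 10.8 TPM, a difference of -2.90 ± 0.17 (limma adjusted p = 3.1e-06). Its z-score difference of -1.01 ± 0.05 was just past the threshold of 1, and the call was lost (-0.954 to -0.998) without polyclonal replicate 1, polyclonal replicate 4, WT5 replicate 1 or WT5 replicate 3. Sema3c, another neuropilin ligand of the same class, was at 101, 91.1, 98.6 and 104 TPM in polyclonal cells and at 15.8, 16.9, 16.4 and 15.9 TPM in WT5, a difference of -2.60 ± 0.05 (adjusted p = 1.1e-08), and was the class 3 semaphorin with the highest level in polyclonal cells. Ntn5, a netrin, was at 0.55, 0.46, 0.44 and 0.93 TPM in polyclonal cells and listed at 0 in all 4 WT5 libraries, so no fold is given, and its call was lost with a pseudocount of 1. In it, 24.9% of the 50-base stretches of its longest transcript also occur in Sec1, which overlaps it on the opposite strand, and its level is uncertain.

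Sema5a, a transmembrane semaphorin, showed the largest difference of the members tested. It was at 0.18, 0.17, 0.16 and 0.24 TPM in polyclonal cells and at 25.5, 25.8, 28.6 and 25.8 TPM in WT5, higher by 6.53 ± 0.09 on the log2(TPM + 0.1) scale (limma adjusted p = 1.6e-09). Sema7a, which is tied to the membrane by a lipid anchor, was at 0.12, 0.13, 0.1 and 0.09 TPM in polyclonal cells and at 12.1, 11.6, 11.4 and 11.4 TPM in WT5, higher by 5.81 ± 0.07 (adjusted p = 7.0e-10). Its plexin receptor Plxnc1 had a mean of 0.023 TPM in polyclonal cells and was listed at 0 in WT5 and the subclones. Among ephrins, Efna2, an ephrin-A ligand, rose from 2.12, 2.2, 2.41 and 2.09 to 20.03, 20.6, 21.3 and 20.4 TPM, by 3.17 ± 0.06 (adjusted p = 4.7e-09), and Efnb3 from 0.26 ± 0.050 TPM (SD, n = 4) to 1.04 ± 0.141 TPM, by 1.67 ± 0.13. With a pseudocount of 1 the difference of Efnb3 was 0.69 and was not called.

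Smaller increases were called for Sema3f, with means of 19.3 and 50.9 TPM and a difference of 1.40 ± 0.10, for Sema3g, with 0.248 and 0.745 TPM and 1.3 ± 0.16, and for Ntn4, with 21.5 and 45.9 TPM and 1.09 ± 0.07 (limma adjusted p of at most 1.8e-04). With a pseudocount of 1 the difference of Sema3g was 0.49, and with median-centred libraries that of Ntn4 was 0.88, and neither was called. Ntn4 is a netrin of basement membranes that binds laminins. With Sema3a and Sema3c lower and Sema3f and Sema3g higher, the summed level of the 7 class 3 semaphorins was 201 ± 10.2 TPM (SD, n = 4) in polyclonal cells and 111 ± 7.47 TPM in WT5, and the leading member was Sema3c in the former and Sema3f in the latter. Sema3e, the class 3 ligand of Plxnd1, was not called, at 16.7 and 28.7 TPM with a difference of 0.78 ± 0.06.

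Among receptors, Unc5b, which binds netrins, was at 0.16, 0.21, 0.13 and 0.24 TPM in polyclonal cells and at 14.4, 13.1, 14.7 and 13.4 TPM in WT5, higher by 5.63 ± 0.12 on the log2(TPM + 0.1) scale (limma adjusted p = 1.5e-08). The other netrin receptors stood differently: Unc5a, Unc5c and Unc5d had means of at most 0.0025 TPM, Dcc of at most 0.025 TPM, and Neo1, neogenin, was at 15.4 ± 0.853 TPM (SD, n = 4) and 20.5 ± 1.02 TPM and was not called. Ephb3, a receptor for ephrin-B ligands, was at 0.23, 0.63, 0.67 and 0.38 TPM in polyclonal cells and at 15.02, 14.5, 14.7 and 14.4 TPM in WT5, higher by 4.75 ± 0.26 (adjusted p = 1.9e-06). Its relative Ephb2 had means of 9.50 and 25.1 TPM, a difference of 1.40 ± 0.09, and Epha2, a receptor for ephrin-A ligands on epithelial cells, 19.3 and 57.5 TPM, a difference of 1.57 ± 0.08. Epha1, Epha4 and Ephb4 differed by 0.86 ± 0.07, 0.91 ± 0.11 and 0.58 ± 0.06 and were not called.

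Nrp2, the co-receptor of class 3 semaphorins that also binds vascular endothelial growth factors, was at 1.69, 1.36, 1.91 and 1.88 TPM in polyclonal cells and at 22.6, 23.2, 23.9 and 23.4 TPM in WT5, higher by 3.70 ± 0.10 (limma adjusted p = 5.1e-08). Nrp1 was higher by 1.34 ± 0.06, from 6.51 to 16.6 TPM. Both neuropilins were thus called higher in WT5, and of the class 3 semaphorins, Sema3a and Sema3c were called lower and Sema3f and Sema3g higher.

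Plexins were called in 1 direction. Plxnb1, a receptor of Sema4d, was at 6.89, 7.45, 8.38 and 7.31 TPM in polyclonal cells and at 51.03, 53.4, 56.9 and 54.6 TPM in WT5, higher by 2.83 ± 0.07 (limma adjusted p = 2.6e-08). Plxnd1, the receptor of Sema3e, was at 5.04, 4.2, 5.13 and 5.28 and at 26.8, 27.6, 31.03 and 28.1 TPM, higher by 2.51 ± 0.09 (adjusted p = 1.5e-07). Plxna2, a class A plexin, had 0.01, 0.02, 0.03 and 0.03 TPM and 0.9, 1.02, 1.08 and 1.05 TPM, higher by 3.18 ± 0.08. Plxnb3 was higher by 1.39 ± 0.20 at a mean of no more than 0.218 TPM, and Plxna1 by 1.02 ± 0.07, from 13.1 to 26.7 TPM. With a pseudocount of 1 the differences of Plxna2 (0.976) and Plxnb3 (0.256) were below the threshold. For Plxna1, 7.19% of the 50-base stretches are shared with Gm26811 on the opposite strand, which had a mean of 0.109 TPM. The call of Plxna1 was lost under median centring, under a pseudocount of 1 and without polyclonal replicate 1, polyclonal replicate 2 or WT5 replicate 3.

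Plxnb2, the plexin with the highest level, was at 205, 215, 204 and 215 TPM in polyclonal cells and at 218, 228, 240.1 and 217 TPM in WT5. The lowest WT5 library was above the highest polyclonal one, but the difference of 0.10 ± 0.05 on the log2 scale did not pass (limma adjusted p = 0.092), and it was -0.10 with median-centred libraries and -0.03 in z-score. Efna1 was at 86.8 to 106 TPM in polyclonal cells and at 170.5 to 176 TPM in WT5, a difference of 0.84 ± 0.07 (adjusted p = 1.8e-05) below the size the 2-fold rule asks for. Sema4d, the class 4 ligand of Plxnb1, likewise differed by 0.59 ± 0.06 and was not called.

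**Figure D3:**
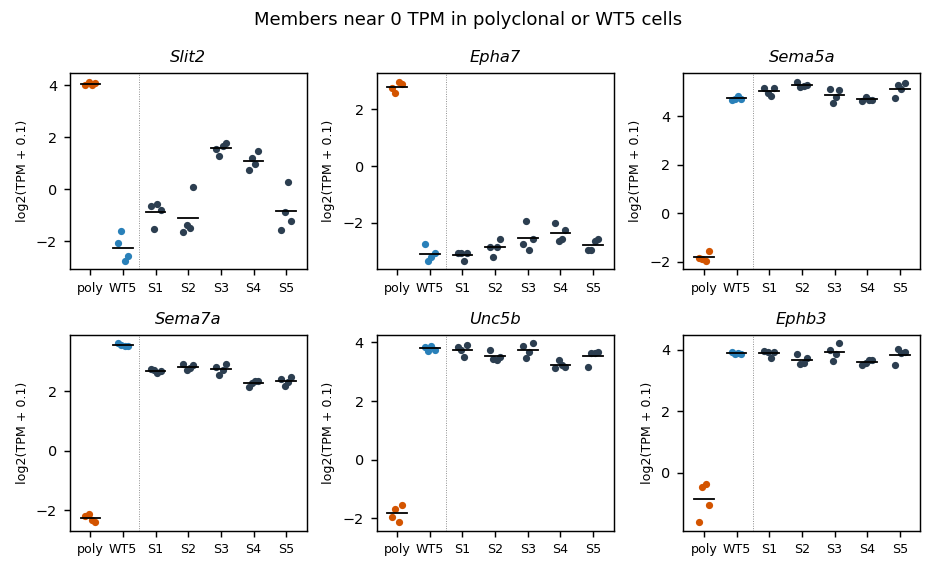
Level of 6 members that were near 0 TPM in polyclonal or WT5 cells, as log2(TPM + 0.1) in each library (points) with the mean of the line (bar), for polyclonal (poly), WT5 and subclones 1 to 5 (S1 to S5). Epha7 stayed low in every subclone library, Sema5a, Sema7a, Unc5b and Ephb3 stayed high, and Slit2 lay higher in subclones 3 and 4 than in WT5; the dotted line separates the table of the first 2 lines from that of the subclones.

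The subclones mostly stood on the side of WT5. For 21 of the 23 members called between WT5 and polyclonal cells (91.3%), all 20 subclone libraries lay beyond the polyclonal range in the direction of WT5, as for 87.6% of the 5598 genes called. The exceptions were Sema3g and Plxna1, each with 15 of 20 libraries. These members were called against the same polyclonal libraries, and the subclones come from WT5, so the share is not separate evidence for the calls. The read layout of the subclones is not stated, so a property of the clone and one of the sequencing cannot be told apart here. Epha7 had a mean of at most 0.098 TPM in a subclone. The subclone means of Sema5a were 32.3, 38.6, 29.6, 25.6 and 35.2 TPM and those of Unc5b were 13.4, 11.4, 13.5, 9.26 and 11.5 TPM, in the order of subclones 1 to 5. The lowest subclone library was thus at 23.1 TPM for Sema5a and 8.60 TPM for Unc5b, where the highest polyclonal library was at 0.24 TPM for both.

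The 5 subclones, which share 1 table and 1 parent line, differed among themselves in 8 of the 45 members tested by limma's moderated F test on log2(TPM + 0.1), at an adjusted p below 0.01 and more than 1 between the highest and the lowest subclone mean. This is 17.8% of the members tested, against 5.19% of all 14999 genes tested. The median distance between the highest and lowest subclone mean was 0.47 over the members and 0.30 over all genes. Ligands made up 7 of the 8, out of 29 ligands tested, and the 1 receptor, Plxnd1, came out of 16 receptors tested. With subclone 3 replicate 2 and subclone 5 replicate 1 both left out, an alternative added after the data had been seen, 8 members were again called, with distances of 2.77 for Slit2, 1.54 for Plxnd1, 1.76 for Sema4f and 1.14 for Efnb1.

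Slit2 had the largest distance among the members, 2.67 on the log2(TPM + 0.1) scale (limma adjusted p = 3.2e-05). It was at 2.86, 2.34, 3.05 and 3.38 TPM in subclone 3 and at 1.57, 2.19, 1.89 and 2.65 TPM in subclone 4. In subclone 1 it was at 0.54, 0.25, 0.58 and 0.47 TPM, in subclone 2 at 0.22, 0.29, 0.26 and 0.96 TPM and in subclone 5 at 0.24, 0.44, 1.11 and 0.33 TPM. All 8 libraries of subclones 3 and 4 lay above all 12 of the other subclones and all 4 of WT5, and all lay below the polyclonal libraries.

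Sema4f, a transmembrane class 4 semaphorin, split the subclones otherwise. It was at 2, 2.93, 2.05 and 2.22 TPM in subclone 2 and at 2.76, 1.5, 2.14 and 2.21 TPM in subclone 3, and in subclone 1 at 0.65, 0.56, 0.49 and 0.84 TPM, in subclone 4 at 0.96, 1.12, 0.92 and 0.87 TPM and in subclone 5 at 0.97, 1.1, 1 and 1.41 TPM, with WT5 at 2.46, 2.47, 2.45 and 2.69 TPM. The 8 libraries of subclones 2 and 3 were all above the 12 of the other subclones. The distance was 1.71 (limma adjusted p = 2.5e-06).

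Plxnd1, the receptor of Sema3e, was low in a single subclone. It was at 9.34, 11.6, 11.5 and 11.5 TPM in subclone 4, and its mean was 27.3, 24.2, 22.5 and 29.7 TPM in subclones 1, 2, 3 and 5, where the lowest library was at 17.2 TPM. The distance was 1.42 (limma adjusted p = 6.1e-06). Its ligand Sema3e had means of 23.8, 24.9, 20.3, 17.9 and 22.7 TPM in subclones 1 to 5, was lowest in the same subclone, and was not called among the subclones.

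Efnb1, an ephrin-B ligand, also had its lowest mean in subclone 4, with 5.43, 5.72, 5.31 and 5.19 TPM, and its highest in subclone 3, with 12.4, 9.62, 10.9 and 12.9 TPM, a distance of 1.06 (limma adjusted p = 1.9e-06). The subclone 4 libraries were below all other subclone libraries. This distance was close to the threshold and fell just under it without subclone 3 replicate 4. Sema3a was at 3.1, 2.29, 3.97 and 2.68 TPM in subclone 3 and at 10.6, 5.79, 7.06 and 6 TPM in subclone 4, with subclone 1 near the former at 3.65, 3.31, 3.37 and 2.97 TPM, a distance of 1.25 (adjusted p = 6.4e-04) that was not called by the unequal-variance test (adjusted p = 0.026). Subclones 2 and 5, at 4.01 to 6.53 and 4.36 to 7.51 TPM, overlapped each other and subclone 4.

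The other 3 members called among the subclones were ligands with low levels. Sema5b, a relative of Sema5a, had means of 0.793, 0.45, 0.935, 0.528 and 0.238 TPM in subclones 1 to 5 (distance 1.62, limma adjusted p = 1.0e-05) and was at 0.185 TPM in WT5. Sema3g had means of 0.495, 0.325, 0.278, 0.385 and 0.958 TPM (distance 1.51, adjusted p = 1.4e-05), with all 4 libraries of subclone 5 above those of the other subclones. Sema3d had means of 0.0075, 0.163, 0.065, 0.308 and 0.11 TPM (distance 1.86, adjusted p = 5.5e-05), and was listed at 0 in 2 libraries of subclone 1. At such levels the pseudocount sets much of the distance, and with a pseudocount of 1 these 3 and Efnb1 were below the threshold of 1.

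**Figure D4:**
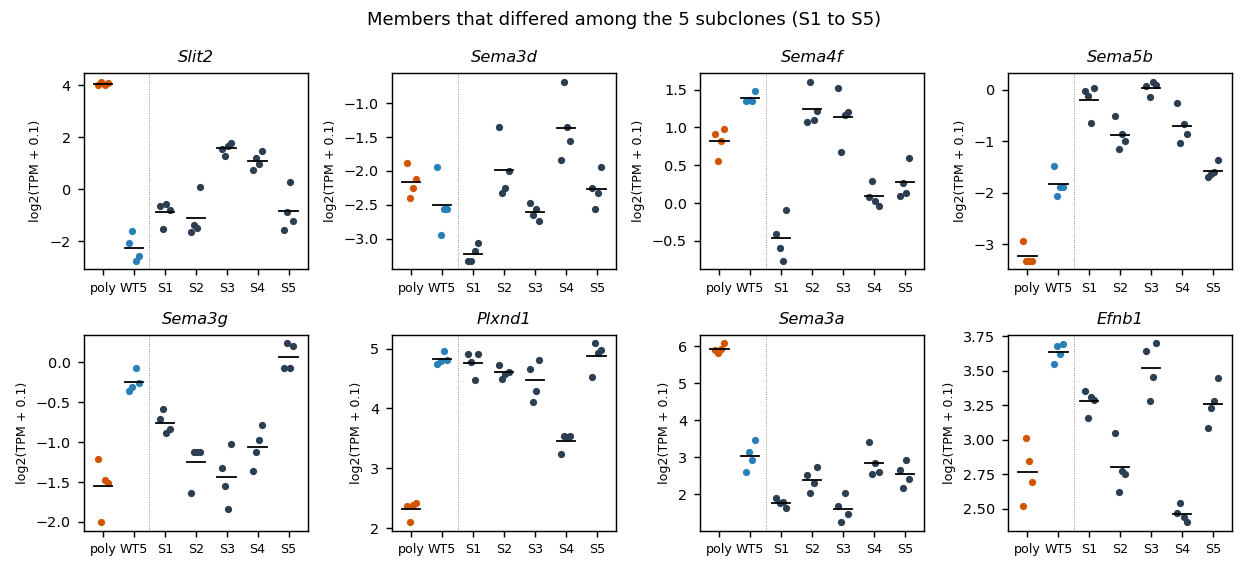
Level of the 8 members that differed among the 5 subclones, as log2(TPM + 0.1) in each library (points) with the mean of the line (bar), for polyclonal (poly), WT5 and subclones 1 to 5 (S1 to S5); the vertical scale differs between panels. Slit2 is highest in subclones 3 and 4 among the subclones, Plxnd1 and Efnb1 are lowest in subclone 4, Sema4f is highest in subclones 2 and 3, and Sema3g in subclone 5.

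Against WT5, the 2-fold rule called 4, 2, 6, 10 and 3 of 45 members in subclones 1 to 5, where 2.77%, 2.54%, 3.3%, 4.48% and 3.06% of all 14992 genes tested were called. In shares of the members these are 8.89%, 4.44%, 13.3%, 22.2% and 6.67%. All 5 comparisons use the same 4 WT5 libraries, so they are not independent. Higher were 1, 0, 2, 3 and 0 members, against 1.17%, 0.914%, 1.45%, 2.43% and 1.16% of all genes, and lower 3, 2, 4, 7 and 3 members, against 1.6%, 1.63%, 1.85%, 2.05% and 1.9%. The median difference of the members was -0.06, -0.21, -0.25, -0.20 and -0.16 on the log2 scale, against -0.03, -0.04, -0.07, -0.05 and -0.09 over all genes. By the z-score rule, where a difference of 1 is about 7.94-fold, 0, 0, 1, 1 and 0 of 44 members were called, against 0.152%, 0.144%, 0.173%, 0.202% and 0.173% of all 13860 genes, and the member was Slit2 in both cases. In subclones 1, 2 and 5, with 0 calls by limma and 0 by the unequal-variance test, 27, 32 and 26 members had an unadjusted p below 0.05, none with a z-score difference above 1. The share of all genes past that p was not counted, so these numbers do not set the members apart.

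Slit2 was higher than in WT5 by 3.81 ± 0.25 in subclone 3 (limma adjusted p = 9.7e-05) and by 3.33 ± 0.27 in subclone 4 (adjusted p = 9.2e-05) on the log2(TPM + 0.1) scale, and by 1.55 ± 0.14 and 1.37 ± 0.15 in z-score. The z-score calls were lost when a pseudocount of 0.1 was added and genes above 0 in any library were kept (0.96 and 0.83), and that in subclone 3 also by the unequal-variance test (adjusted p = 0.017). In subclones 1, 2 and 5 the difference was 1.36 ± 0.31, 1.14 ± 0.43 and 1.39 ± 0.43, and it was not called. Sema5b was called higher in subclones 1, 3 and 4, by 1.64 ± 0.18, 1.87 ± 0.13 and 1.13 ± 0.19, and Sema4a, a class 4 semaphorin, in subclone 4, by 1.51 ± 0.25. These are the members called higher in a subclone. With a pseudocount of 1 the differences of Sema5b were 0.59, 0.71 and 0.36 and none was called, and the call of Sema4a was lost by the unequal-variance test (adjusted p = 0.021).

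Subclone 4 had the most members called, and 7 of its 10 were lower than in WT5. These were the ligands Efnb1, Sema4f and Sema7a, at -1.17 ± 0.05, -1.3 ± 0.07 and -1.27 ± 0.05 on the log2(TPM + 0.1) scale, and the receptors Plxnd1, Epha2, Plxna1 and Epha1, at -1.37 ± 0.08, -1.16 ± 0.03, -1.15 ± 0.06 and -1.02 ± 0.04 (limma adjusted p of at most 2.7e-05). Of these 7, Efnb1, Sema4f and Plxnd1 were also called in the comparison among subclones, which does not use WT5. That comparison uses the same subclone 4 libraries and does not test which subclone differs. For Sema4f the lowest mean was that of subclone 1 (0.635 TPM). With a pseudocount of 1 Sema4f (-0.84) and Epha1 (-0.98) were not called, nor was Epha1 with median-centred libraries (-0.93). Epha1 shares 236 exon bases on the opposite strand with Zyx, which had a mean of 118 TPM, and whether the counting used strand is not given in the sources used here.

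Efna3, Epha2 and Sema7a were among the members that were lower than in WT5 in every subclone. Efna3, an ephrin-A ligand, was at 7.97, 10.2, 8.24 and 8.96 TPM in WT5 and had means of 2.73, 4.23, 3.57, 4.69 and 2.34 TPM in subclones 1 to 5, and it was called in all but subclone 4, with differences of -1.65, -1.05, -1.29, -0.90 and -1.87 on the log2 scale. Epha2 was at 58.8, 58.2, 57.4 and 55.6 TPM in WT5 and had means of 31.5, 32.9, 27.2, 25.7 and 33.5 TPM, and was called in subclones 3 and 4. Sema7a was at 11.6 TPM in WT5 and had means of 6.31, 6.98, 6.68, 4.77 and 4.97 TPM, and was called in subclones 4 and 5. None of the 20 subclone libraries reached the lowest WT5 library for these 3 genes. The same held for Efna2, Efna4, Epha1, Epha4, Ephb4 and Sema4c, while for Sema3c all 20 lay above the highest WT5 library. The share of all genes that separate in this way was not counted. None of the 3 was called among the subclones, where their distances were at most 0.97. Efna3 and Sema7a missed that call by size alone (limma adjusted p = 9.9e-06 and 9.9e-05). A change in the cells and a difference between the tables cannot be told apart. In Efna3, 8.56% of the 50-base stretches are shared with Gm15998 on the opposite strand.

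The remaining calls against WT5 were Sema4f, lower in subclones 1 and 5 with -1.85 ± 0.14 and -1.11 ± 0.11, Sema3a, lower in subclones 1 and 3 with -1.25 ± 0.18 and -1.42 ± 0.22, and Sema3g, lower in subclones 2 and 3 with -1.0 ± 0.13 and -1.19 ± 0.17 (limma adjusted p of at most 0.0034). By the unequal-variance test the calls of Sema3a and Sema3g in these subclones, of Sema4f in subclone 5 and of Epha2 in subclone 3 were lost (adjusted p of 0.014 to 0.027), and with a pseudocount of 1 those of Sema3g (-0.40 and -0.45), of Sema4f in subclone 5 (-0.73) and of Efna3 in subclone 2 (-0.91). With median-centred libraries Sema3g (-0.95) and Efna3 (-0.99) in subclone 2 and Epha2 in subclone 3 (-0.99) were not called. The calls of Sema3g and Efna3 in subclone 2, of Epha2 in subclone 3 and of Epha1 in subclone 4 lay within 0.1 of the threshold of 1. Without 1 library each of these fell below it: Efna3 without WT5 replicate 2 (-0.98), Sema3g without WT5 replicate 3 (-0.95) or subclone 2 replicate 1 (-0.87), Epha2 without subclone 3 replicate 2 (-0.99), and Epha1 without subclone 4 replicate 3 (-0.995), as did Sema5b in subclone 4 without its replicate 1 (0.975). The call of Sema3a in subclone 3 was lost, with limma adjusted p of 0.010 to 0.013, without WT5 replicate 2 or 3 or subclone 3 replicate 1 or 4.

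Beyond the members, 41 genes of the same pathways were examined, namely partner receptors, Slit-Robo GTPase-activating proteins, collapsin response mediators, Mical oxidases and other effectors. Between WT5 and polyclonal cells 9 of 35 tested were called higher and 2 lower by the 2-fold rule, which is 31.4% and close to the 32.5% of all genes called. By the z-score rule 2 of 34 were called higher and 1 lower, or 8.82% against 5.43% of all genes. Higher in WT5 were Vav3, an exchange factor used by Eph receptors, with 4.30 ± 0.17 on the log2(TPM + 0.1) scale, Flt1, which binds vascular endothelial growth factor, with 3.42 ± 0.16, Mical2, with 2.85 ± 0.07, Srgap1, with 2.57 ± 0.10, Met, a partner of class B plexins, with 1.63 ± 0.07, Srgap3, with 1.42 ± 0.09, Rnd1, with 1.20 ± 0.14, Abl1, with 1.18 ± 0.05, and Farp2, with 1.05 ± 0.11. Lower were Flrt3, an adhesion protein that binds Unc5 and Robo receptors, with -4.29 ± 0.23, and Dpysl2, a collapsin response mediator, with -1.70 ± 0.09. Flrt3 fell from 5.38 ± 0.289 TPM (SD, n = 4) to 0.193 ± 0.101 TPM, and Met rose from 29.8 ± 2.36 TPM to 92.6 ± 3.90 TPM.

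Among the subclones, 3 of 36 pathway genes tested were called, or 8.33% against 5.19% of all genes. Dpysl5 was at a mean of 3.43 TPM in subclone 4 and between 0.568 and 1 TPM in the other subclones, a distance of 2.42 on the log2 scale. Srgap1, whose product binds Robo receptors, was at 1.22, 0.63, 1.14, 1.31 and 0.445 TPM in subclones 1 to 5 (distance 1.43), and Vav3 at 2.78, 4.87, 2.43, 2.95 and 5.34 TPM (distance 1.10). Against WT5, Dpysl5 and Srgap1 were called higher and Srgap3 lower in subclone 4, and Flt1 lower in subclone 1.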

How the data were processed

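Total RNA of confluent mIMCD-3 cells was sequenced in 28 libraries, 4 of each of 7 lines. The authors removed reads with adapters or low-quality bases, mapped the rest to GRCm38 (STAR 2.7.3a, Ensembl gene models), and deposited the TPM that RSEM 1.3.1 gave per gene in 2 tables, given to 2 decimals, with 0.01 as the lowest value above 0. CASAVA 1.8 is also named in the submitters' processing notes. Since TPM does not retain the number of reads, depth per library is unknown and the counting error cannot be given. Symbols were found for 45143 of 45706 identifiers.

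Log2(TPM + 0.1) over genes with a mean of at least 0.1 TPM, and z-scored log2(TPM) over genes above 0 in all 8 or all 24 libraries, were compared with limma 3.58.1 in R 4.3.3, two-sided, with Benjamini-Hochberg adjustment over all genes tested, in 7 comparisons. Fold changes on the first scale understate the change of low genes. The z-score rule takes its transformation and thresholds from the methods, which name an unequal-variance test, run here as an alternative. Simulated data of 14740 genes with 200 changed were drawn independently from normal distributions with the gene means and SDs of the WT5 libraries. With a change of 2 on the log2 scale, the fit of 2 groups recovered 87.2% with 2 false calls over 3 runs. The fit of 5 groups recovered 90.2% with 0. With a change of 3 these were 91.3% with 0 and 94.3% with 5. Shifts of whole libraries were not simulated, and far fewer genes were changed than were called between WT5 and polyclonal cells. These rates may therefore not hold for the real fits.

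The members and lists were chosen with earlier results of these data known. Named were the members called in each comparison, to a limit of 15 in each direction, and beyond that limit the leading member of each family, known partners and members called elsewhere. Gene positions are from GENCODE M21 and promoters from RefSeq, both on GRCm38. For each member the RefSeq start nearest the annotated gene start was used, and for some members it lies inside the gene. Sharing of 50-base stretches was taken between longest transcripts. Tables and plots were made with pandas 2.3.3, numpy 2.4.6 and matplotlib 3.10.9 in Python 3.11.15.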

Additional observations from a re-analysis of the deposited data

Results flagged for a closer look

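In 265 sets of 4 libraries, 1 for each line and member with a mean of at least 1 TPM in that line, 14 held a library whose gap to its nearest neighbour exceeded Dixon's critical value at the 95% level, and chance gives about 1 in 20. In subclone 5 replicate 1, which was also low over the members as a whole, 5 members were low: Efnb2 at 11.52 TPM against 14.69 to 14.88 TPM in the other 3 libraries, Epha2 at 27.64 TPM against 35.25 to 35.62 TPM, Ntn1 at 15.53 TPM against 19.22 to 19.86 TPM, Sema4d at 21.73 TPM against 29.38 to 30.61 TPM, and Unc5b at 8.88 TPM against 12.21 to 12.71 TPM. In subclone 4 replicate 1, 3 members were low: Epha4 at 4.44 TPM against 5.31 to 5.39 TPM, Plxnd1 at 9.34 TPM against 11.45 to 11.57 TPM, and Sema4d at 26.48 TPM against 30.37 to 30.96 TPM. In WT5 replicate 3, Ntn4 was at 50.9 TPM against 43.42 to 44.66 TPM and Sema5a at 28.57 TPM against 25.47 to 25.83 TPM, and in WT5 replicate 4, Sema4f was at 2.69 TPM against 2.45 to 2.47 TPM. In subclone 2, Plxna1 was at 22.56 TPM in replicate 1 against 20.27 to 20.55 TPM, and Plxna2 at 0.96 TPM in replicate 2 against 1.09 TPM in all others. In subclone 1 replicate 4, Sema4a was at 4.58 TPM against 1.57 to 1.9 TPM.

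For 8 members the difference between lines was itself tested and passed, by limma's moderated F test over the 5 subclones. The distance between the highest and the lowest subclone mean was 2.67 for Slit2, 1.86 for Sema3d, 1.71 for Sema4f, 1.62 for Sema5b, 1.51 for Sema3g, 1.42 for Plxnd1, 1.25 for Sema3a and 1.06 for Efnb1 on the log2(TPM + 0.1) scale. Sema3d, Sema3g and Sema5b had subclone means below 1 TPM.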

How the results depend on the processing

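Among the counts of members called, no direction turned under any alternative run. The 23 members called between WT5 and polyclonal cells became 21 to 24 when single libraries were left out, and the 9 called by the z-score rule 7 to 10. Against WT5 the counts were 4 to 5, 1 to 3, 5 to 6, 9 to 10 and 3 in subclones 1 to 5, and among the subclones 7 to 9. The z-score counts against WT5 did not move when single libraries were left out. In subclone 2, the count of 2 was 0 with a pseudocount of 1 and 0 with median-centred libraries, 1 with the unequal-variance test and 1 over genes with a mean of at least 1 TPM, and it was 1 without WT5 replicate 2, WT5 replicate 3 or subclone 2 replicate 1. In subclone 3, the count of 6 was 3 with the unequal-variance test. The z-score calls of Slit2 in subclones 3 and 4 gave 0 when a pseudocount of 0.1 was added and genes above 0 in any library were kept, and 0 in subclone 3 with the unequal-variance test. Among the subclones, the count of 8 was 4 with a pseudocount of 1 and 5 over genes with a mean of at least 1 TPM, which tests fewer of the low members.

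Replicate numbers were not taken to pair the libraries, since in no comparison did every same-numbered pair correlate above 0.1 (range -0.22 to 0.32 among the subclones and -0.10 to 0.11 in the other comparisons). With the replicate block, the count became 0 in subclone 2 and 2 in subclone 3. For single members named, 8 of 67 calls passed the threshold no longer under the block and 19 of 56 under a pseudocount of 1, and none reversed. Low members are limited by the 2 decimals of the values, and the cause of the other losses was not tested.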

Other observations

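Several expressed guidance genes were called in none of the comparisons run, which did not set the subclones against polyclonal cells. Sema4b, a class 4 semaphorin, had means of 29.6 TPM in polyclonal cells, 20.6 TPM in WT5 and 23.3, 21.1, 20.8, 24.3 and 20.2 TPM in subclones 1 to 5. Sema6c, a transmembrane class 6 semaphorin, had 21.8, 18.7 and 17.4, 15.3, 14.6, 16.6 and 18.1 TPM, and Ephb4, the receptor of Efnb2, 42.9, 64.3 and 52.2, 50.2, 45.3, 48.6 and 49.3 TPM. Efna4 had 41.2, 38.01 and 30.4, 30.8, 27.9, 30.2 and 24.6 TPM, but 7.68% of its 50-base stretches are shared with another transcript. Ntn1, the netrin that binds Dcc and Unc5 receptors, had 6.48 TPM in polyclonal cells, 10.9 TPM in WT5 and 17.96, 15.7, 13.7, 14.1 and 18.5 TPM in subclones 1 to 5, so that its lowest mean was in polyclonal cells. Plxna3, a class A plexin, had 6.81, 10.6 and 14.7, 13.3, 15.7, 11.9 and 14.6 TPM in the same order of lines.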
